A study of Mus musculus with 34 samples.

Results

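Injured spinal cord of mice without trkB.T1 was compared between 7 and 3 days after the injury. The arrays were chosen by their labels alone, and they are 4 KO arrays of day 7 and 5 KO arrays of day 3, which makes 9 of the 34 arrays of the series. Both groups carry the same genotype, knock out for trkB.T1, and both had a spinal cord injury (SCI), so by the labels the groups share genotype and injury and differ in the time since injury. The arrays also differed in tissue makeup, as described below. Sham-operated cord, with the cord left intact, was not used. Strain, age, sex, the kind, level and severity of the injury and the length of cord taken are not given in the sources used here. Ntrk2 encodes trkB, which binds brain-derived neurotrophic factor, and trkB.T1 is its short form without the kinase. In the normal cord that form is made mostly by astrocytes and other glia. From WT cord, with the same injury and times, 4 arrays of day 7 and 4 of day 3 were set beside them.

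Injured cord passes through overlapping stages that are well described in mice. Blood monocytes enter in the first days and become macrophages, resident glia and endothelial cells divide, and astrocytes react and later form a border around the lesion. By the end of the first week phagocytes have taken up myelin lipid and blood breakdown products. The step from day 3 to day 7 therefore spans the end of the first wave of cell division and the maturing of the phagocytes. Whole tissue was measured, so fewer cells of a type and less RNA per cell cannot be told apart in any result below.

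Signal is given on the deposited log2 scale, where a difference of 1 is a 2-fold change, and a gene under log2 4 is taken as not well above background. Of 18193 genes on the array, 11993 were above log2 4 on at least 4 arrays and were tested. A gene is said to have risen, fallen or passed when its adjusted p was below 0.05 in limma over all genes tested. Values after ± are the SD of a group or the standard error of a difference. Where an array of the dimmer group was under log2 4, values under 4 were raised to 4 and the fold is a lower bound ("at least"). Whether arrays come from separate animals is not stated in the labels, so p-values measure the spread between samples. That spread was estimated over the 26 arrays of the 6 injured groups, which include 4 KO and 5 WT arrays of day 1. With only the 9 KO arrays of days 3 and 7 in the fit, 2126 genes passed in place of 3625. Precision is limited by how few arrays there are.

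The 4 KO day 7 arrays lay close together and the 5 KO day 3 arrays did not. The median SD of a gene was 0.0839 over the KO day 7 arrays and 0.21 over the KO day 3 arrays. Day 3 replicates 3 and 4 stood apart with low neuronal signal, and replicates 1 and 3 carried skeletal muscle transcripts, as detailed with the neuronal genes. List counts are therefore also given without replicates 3 and 4, and some without replicates 1 and 3. These settings were chosen after the values were seen. Of 178 named genes that passed with all arrays, 126 passed without replicates 3 and 4, and 140 passed without replicates 1 and 3.

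The targeted gene was read first. One Ntrk2 probe set read 3.96, 4.24, 3.98 and 4.53 on the KO day 7 arrays and 3.12, 4.02, 3.31, 4.94 and 4.09 on the KO day 3 arrays. It stood at 10.64 ± 0.16 in WT day 7 cord and 10.65 ± 0.15 in WT day 3 cord (SD, n = 4 each). A second read 2.83 on all 9 KO arrays, against 9.74 ± 0.12 in WT day 7 cord and 9.09 ± 0.34 in WT day 3 cord. No KO array thus came near the WT level on these probe sets, which were picked for reading low in KO cord. The Ntrk2 probe set with the highest signal, whose place in the transcript is not given here, read 10.68, 10.65, 10.61 and 10.61 on the day 7 arrays, against 10.23, 10.52, 9.18, 9.42 and 10.44 on the day 3 arrays. That difference of 0.68 ± 0.22 passed (limma adjusted p = 0.0267), but it passed in only 3 of the 9 fits that left out 1 array, and without replicates 3 and 4 it was 0.24 (adjusted p = 0.405).

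Between day 3 and day 7, 1861 genes rose in KO cord, which is 15.5% of the genes tested, and 1764 fell, which is 14.7%. At a change of at least 2-fold, 205 rose (1.71%) and 350 fell (2.92%). Such 2-fold counts, here and in the lists, use the deposited values, also those under log2 4. With values under 4 set to 4, 487 genes passed at 2-fold or more in place of 555. The groups did not overlap for 1627 genes with higher day 7 arrays (13.6%) and for 1683 with lower ones (14%). The median difference over all genes was 0.03. Without day 3 replicates 3 and 4, 1383 genes passed in place of 3625, and 339 in place of 555 at 2-fold or more. Leaving out replicate 3 alone gave 2331 calls and replicate 4 alone 2357. The 34 gene lists below are described by how many of their tested members passed. Counts with all arrays are to be read against 15.5% higher and 14.7% lower. Counts without day 3 replicates 3 and 4 are to be read against the 1383 of 11993 genes that passed there, 44.6% of them higher. Lists and members were chosen with earlier results of these data known, so this comparison is a description and not a test.

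Genes of mitosis and of DNA replication fell almost as a block. Of 37 tested members of the mitosis and G2/M list, 35 fell and 0 rose. On the deposited values each of the 35 fell by 2-fold or more, and the median difference of the list was -2.19. These figures include members under background at day 7. With values under log2 4 set to 4, 34 members fell. One further member on the array did not reach the filter. Of 38 tested genes of G1/S and DNA replication, 35 fell and 0 rose, 22 of them by 2-fold or more, with a median of -1.13. Without day 3 replicates 3 and 4 the counts were 35 and 31, so both lists still fell in most members.

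Kif20a, a kinesin of the central spindle needed for cytokinesis, read 4.42, 4.28, 4.0 and 4.0 on the KO day 7 arrays, against 7.15, 6.90, 7.51, 8.15 and 7.35 on the KO day 3 arrays. The groups were far apart, with day 7 at or near the background level. The difference was -3.24 ± 0.24 (limma adjusted p = 6.94e-09), at least 9.43-fold. Cdk1, the kinase that drives entry into mitosis, read 7.31, 7.24, 7.05 and 7.17 at day 7 and 9.03, 8.75, 9.21, 9.68 and 8.79 at day 3. It fell by 1.90 ± 0.20 on the log2 scale, a 3.72-fold change (adjusted p = 7.92e-07), and unlike Kif20a it stayed well above background at day 7. Ccna2, the cyclin A that partners it, averaged 7.00 ± 0.20 at day 7 and 9.14 ± 0.33 at day 3, a difference of -2.14 ± 0.24. The spindle kinases Aurka, Plk1, Nek2 and Aurkb were under log2 4 on every day 7 array, so only a bound on their fall is given. They were at least 4.80-fold (Aurka), 3.16-fold (Plk1), 2.78-fold (Nek2) and 2.28-fold (Aurkb) lower at day 7, with limma adjusted p of 9.16e-09, 2.48e-08, 3.87e-08 and 9.25e-09. Tpx2, which activates Aurka on the spindle, was likewise under background at day 7 and at least 5.05-fold lower. Hmmr, a spindle-associated hyaluronan receptor that is not on the list, was at least 10.1-fold lower at day 7. The 2 list members that did not pass were the cytokinesis gene Anln, at -0.08, and the spindle gene Spag5, at -0.52.

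Promoters of mitotic genes are known for a short element, the cell cycle homology region, that often sits near CCAAT boxes, and these letters can be read in the bases before the RefSeq start of each gene. Of the named mitotic genes with a start in the table used here, 4 are shown. Each is given as the 120 bases before its start, 5′ to 3′ on the gene's own strand, on assembly GRCm38.p6. Starts on a single chromosome were left out of this display but not of the window counts below. Capitals mark TTTGAA and CCAAT on either strand, so TTCAAA and ATTGG count too.
Aurka, chr2:172370571-172370690, minus strand: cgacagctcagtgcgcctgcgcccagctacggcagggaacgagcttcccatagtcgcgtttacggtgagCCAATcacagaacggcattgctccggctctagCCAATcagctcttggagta
Plk1, chr7:122159315-122159434, plus strand: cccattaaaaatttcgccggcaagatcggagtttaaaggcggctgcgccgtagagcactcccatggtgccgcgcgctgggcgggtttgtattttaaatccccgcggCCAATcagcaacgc
Nek2, chr1:191821353-191821472, plus strand: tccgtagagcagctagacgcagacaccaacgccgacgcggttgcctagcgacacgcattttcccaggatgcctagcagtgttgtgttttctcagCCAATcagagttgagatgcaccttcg
Cdk1, chr10:69352913-69353032, minus strand: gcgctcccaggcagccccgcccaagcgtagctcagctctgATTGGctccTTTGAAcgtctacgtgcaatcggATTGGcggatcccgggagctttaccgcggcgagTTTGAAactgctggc
Each of the 4 holds CCAAT, and Cdk1 alone holds TTTGAA in the stretch shown. In the 250 bases before the start, 25 of 33 windows of the mitosis list (75.8%) held CCAAT and 12 (36.4%) held TTTGAA, for 31 genes that matched the table. Of all 32851 windows in the table, 33.8% held CCAAT and 16.0% held TTTGAA, and of the 12535 windows of genes tested, 34.7% and 10.4% did. Of 37 windows of the G1/S list, 21 (56.8%) held CCAAT and 4 (10.8%) TTTGAA. A match is a description of the letters and says nothing of binding in these cords.

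In the replication list, Tk1, thymidine kinase of the salvage pathway, read 2.80, 3.13, 3.23 and 3.83 at day 7 against 6.20, 5.81, 6.86, 6.90 and 5.88 at day 3. It was under background on every day 7 array and above it on every day 3 array, at least 5.03-fold higher at day 3. Rrm2 and Rrm1, the ribonucleotide reductase subunits that supply deoxynucleotides, fell by 2.19 ± 0.24 and 1.27 ± 0.11. Uhrf1, which maintains DNA methylation behind the fork, fell by 2.20 ± 0.21. The origin licensing factor Cdc6, under background at day 7, was at least 3.53-fold lower. Pcna, the sliding clamp, averaged 11.48 ± 0.02 at day 7 and 12.30 ± 0.24 at day 3, a smaller fall of 0.83 ± 0.10. Ccnd1, the cyclin D1 of the G1 phase, fell by 0.74 ± 0.14. The list's exceptions were Ccnd2 (-0.12), Cdk6 (-0.53) and E2f1 (-0.36), which did not pass. Of 15 inhibitors of the cycle, 5 fell and 2 rose (3 and 0 without day 3 replicates 3 and 4), and the 5 that fell include Cdkn2c (-1.12 ± 0.21) and the pocket protein Rbl1 (-1.10 ± 0.20). Cdkn1a, the p21 inhibitor, fell by 0.97 ± 0.31 (adjusted p = 0.0247) but passed in only 5 of 9 fits that left out 1 array.

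**Figure D1:**
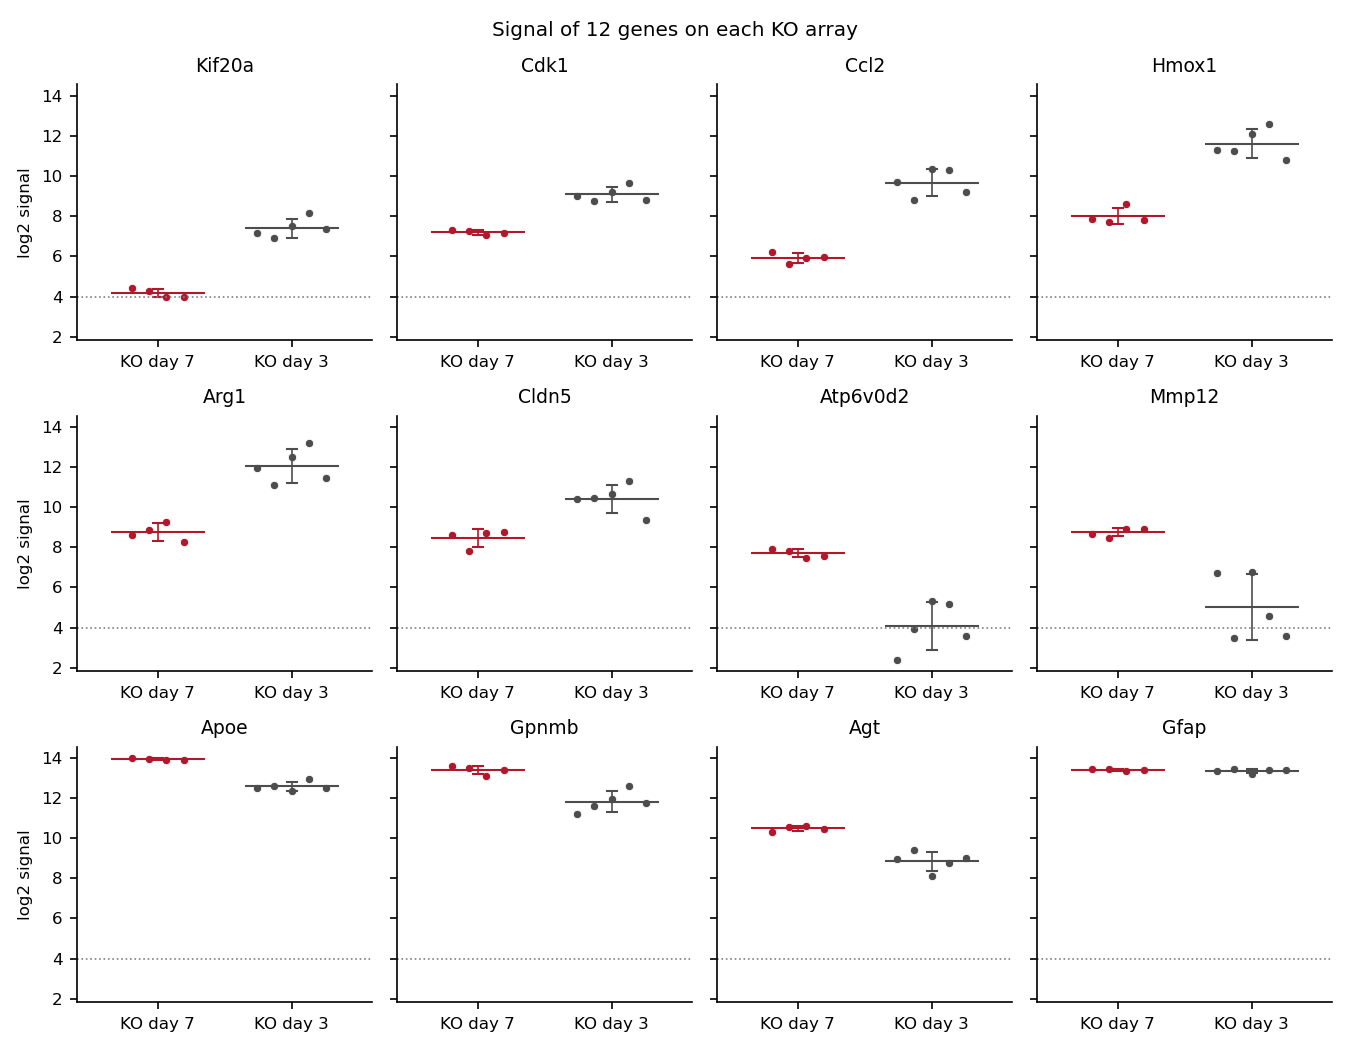
Log2 signal of 12 genes on each KO array, with day 7 arrays (red) left of day 3 arrays (grey); points are arrays in replicate order, lines are means, bars are SD, and the dotted line is log2 4, the background level. For Kif20a, Cdk1, Ccl2, Hmox1, Arg1 and Cldn5 every day 7 array lies below every day 3 array, for Atp6v0d2, Mmp12, Apoe, Gpnmb and Agt every one lies above, and for Gfap the groups overlap.

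Genes of newly arrived macrophages fell. Of 25 tested members of the early infiltrating macrophage list, 15 fell and 0 rose, 13 of them by 2-fold or more, with a median of -1.41. Without day 3 replicates 3 and 4 the count was 9. Ccl2, the chemokine that draws monocytes through the receptor Ccr2, read 6.20, 5.61, 5.93 and 5.97 at day 7, against 9.71, 8.81, 10.37, 10.31 and 9.20 at day 3. The groups did not overlap, and the difference was -3.76 ± 0.26, a 13.5-fold change (limma adjusted p = 2.81e-09). Ccl7, another ligand of that receptor, read 3.53, 5.10, 3.90 and 4.60 at day 7 and 8.80, 7.23, 9.35, 9.26 and 7.71 at day 3, at least 16.5-fold higher at day 3. Ccr2 itself read 2.87, 3.70, 3.99 and 3.28 at day 7, all under background, against 7.51, 4.79, 7.78, 6.88 and 5.97 at day 3, and it was at least 6.0-fold lower at day 7 (adjusted p = 0.000507). Its day 3 values spread over 3 log2 units, with replicate 2 lowest, and still did not reach the day 7 values. Arg1, the arginase made by lesion macrophages, read 8.62, 8.88, 9.28 and 8.25 at day 7 and 11.94, 11.08, 12.49, 13.21 and 11.45 at day 3. It fell by 3.28 ± 0.46, 9.68-fold, and was still well above background at day 7.

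Chil3, a chitinase-like secreted protein of the same cells, fell by 3.17 ± 0.60 and the lectin receptor Clec4d by 2.71 ± 0.34. The difference for the matrix protein Thbs1 was -2.95 ± 0.48. Thbs1 and the matrix protein Fn1 are also made by other cells, and Fn1, at -0.57, did not pass. The other members that did not pass were all lower at day 7, from Vcan at -0.14 to Cxcl2 at -1.92. The mean of the list lay between 6.01 and 6.25 on the day 7 arrays, and on day 3 at 8.24, 7.02, 8.93, 8.45 and 7.16 in replicate order. Replicates 2 and 5 were thus about 1 log2 unit above day 7 and the other 3 arrays at least 2 above. Replicates 1 and 3 are the arrays with muscle transcripts, and 3 and 4 those with low neuronal signal; the part of either in this list was not tested.

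Heme handling is tied to these cells, since macrophages break down the heme of extravasated blood. Hmox1, the heme oxygenase that opens the heme ring, read 7.88, 7.73, 8.62 and 7.83 at day 7, against 11.28, 11.23, 12.08, 12.61 and 10.82 at day 3. It fell 12-fold, by 3.59 ± 0.34 (limma adjusted p = 1.7e-07), with no overlap. The biliverdin reductases that act next fell less, Blvrb by 0.78 ± 0.17 and Blvra by 0.23 ± 0.07, and the heme transporter Slc48a1 fell by 0.32 ± 0.08. Blvra did not pass without day 3 replicate 4, alone or with replicate 3, without day 7 replicate 2 or 3, or with only the 9 KO arrays in the fit. Of 19 tested genes of iron and heme handling, 6 fell and 1 rose. The fallers numbered 4 without day 3 replicates 3 and 4, without day 7 replicate 2 or without day 7 replicate 3, and 10 without day 3 replicate 5. The one that rose was Nqo1, a quinone reductase, at 0.73 ± 0.12. The ferritin heavy chain Fth1 (-0.06), the transferrin receptor Tfrc (-0.19) and the iron exporter Slc40a1 (-0.53) did not pass. Of 6 red blood cell genes on the array, 3 were tested and 0 passed, among them the heme synthesis enzyme Alas2 at -0.94 ± 0.65.

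Of 23 tested cytokines and chemokines, 10 fell and 3 rose, and without day 3 replicates 3 and 4, 6 fell and 3 rose. Besides Ccl2 and Ccl7, those that fell include the gp130 ligand Clcf1 (-2.15 ± 0.30), the platelet chemokine Pf4 (-2.15 ± 0.42), the neutrophil chemokine Cxcl1 (-1.90), Ccl9 (-1.66 ± 0.32), Ccl6 (-1.57 ± 0.33) and Il1b (-1.20). The 3 that rose were Ccl5 (1.98) and Cxcl10 (1.61), which interferon induces, and Cxcl16 (0.82). The macrophage chemokines Ccl3 (0.04) and Ccl4 (0.18) did not pass. Il6, at -0.72, did not pass either. Cd93 and C5ar1, which myeloid cells carry, fell by 1.79 ± 0.33 and 1.19 ± 0.24.

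A second group of phagocyte genes rose. Of 28 tested members of the late lipid-laden phagocyte list, 15 rose and 3 fell, 12 of the rises by 2-fold or more, with a median of 0.52. Without day 3 replicates 3 and 4, 15 rose and 1 fell. Atp6v0d2, a subunit of the vacuolar proton pump found in osteoclasts and macrophages, read 7.93, 7.80, 7.49 and 7.58 at day 7, against 2.40, 3.94, 5.33, 5.17 and 3.58 at day 3. Of the day 3 arrays 3 were under background, and no day 7 array was, and it was at least 9.18-fold higher at day 7 (3.62 ± 0.38, limma adjusted p = 5.57e-07). Mmp12, the macrophage elastase, read 8.68, 8.49, 8.93 and 8.90 at day 7 and 6.71, 3.48, 6.79, 4.57 and 3.56 at day 3. Its day 7 arrays were within 0.5 of each other while day 3 replicates 1 and 3 were already about 2 log2 units above the other day 3 arrays, and the difference was 3.73 ± 0.66 (adjusted p = 0.00028), at least 11.6-fold. Cst7, a cystatin of lysosomes that marks disease-associated microglia, rose by 2.49 ± 0.36.

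The lipid carriers moved the same way at high signal. Apoe read 13.98, 13.93, 13.89 and 13.88 at day 7, against 12.50, 12.60, 12.35, 12.96 and 12.49 at day 3, a rise of 1.34 ± 0.16, 2.54-fold. The day 7 arrays differed by 0.1 while the lowest of them stood 0.9 above the highest day 3 array. Apoc1, its neighbour in the same lipoprotein family, rose by 2.57 ± 0.64, 5.92-fold. Among the other risers were the lipid receptor Trem2 (1.20), the lipase Lpl (1.15), the cholesterol exporters Abca1 (0.69) and Abcg1 (0.65), the glucan receptor Clec7a (1.76) and the growth factor Igf1 (1.82). Gpnmb, a glycoprotein of lysosome-rich phagocytes, read 13.58, 13.51, 13.08 and 13.39 at day 7, against 11.20, 11.59, 11.96, 12.58 and 11.74 at day 3. It did not overlap and rose by 1.58 ± 0.51 (adjusted p = 0.0251), but it passed in only 5 of the 9 fits that left out 1 array, at adjusted p up to 0.0592. Another Gpnmb probe set had a difference of the opposite sign that did not pass (-0.67 ± 0.45, adjusted p = 0.267). The members that fell were the galectin Lgals1 (-1.0 ± 0.13), the scavenger receptor Msr1 (-0.99) and Csf1 (-0.37). Lipid droplet and uptake genes on the same list did not pass, with Plin2 at -0.01, Cd36 at 0.40, Fabp5 at -0.11 and Lipa at 0.15.

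Lysosomal genes rose by less. Of 27 tested hydrolases and lysosomal membrane proteins, 9 rose and 1 fell, 0 of them by 2-fold, with a median of 0.24. The count of risers was 11 without day 3 replicates 3 and 4, 5 without replicates 1 and 3, and 17 with array weights. The membrane protein Scarb2 averaged 12.68 ± 0.04 at day 7 and 12.18 ± 0.10 at day 3 (0.50 ± 0.06, adjusted p = 2.17e-06). Naglu and Man2b1, which trim glycans, rose by 0.95 ± 0.19 and 0.83 ± 0.12, and Lamp1 by 0.26 ± 0.05. Other probe sets of Man2b1 (-0.31 ± 0.15) and Scarb2 (-0.06 ± 0.11) had the opposite sign and did not pass. The one that fell was the cathepsin Ctsc (-0.80 ± 0.18), a peptidase that activates neutrophil and mast cell proteases. Another Ctsc probe set, at -0.17 ± 0.29, did not pass (limma adjusted p = 0.695). Without day 3 replicates 3 and 4 the Ctsc difference was -0.54 and did not pass (adjusted p = 0.0561). The macrophage lysosome gene Cd68, at 0.02, and the cathepsins Ctsb (0.18) and Ctsl (0.08) did not pass.

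Of 16 tested genes of homeostatic microglia, 7 rose and 0 fell, with a median of 0.36. Tgfbr1, a receptor for the signal that keeps microglia in their resting state, read 11.41, 11.22, 11.18 and 11.20 at day 7, against 10.41, 10.27, 10.57, 10.31 and 10.41 at day 3. Its groups were well apart, at 0.86 ± 0.10 (adjusted p = 1.44e-06). Siglech, a microglial lectin, rose by 1.30 ± 0.31, the fractalkine receptor Cx3cr1 by 0.74 ± 0.21 and the purinergic receptor P2ry13 by 0.55 ± 0.21. With replicates 3 and 4 left out 2 members passed, as with replicates 1 and 3 left out, and in fits without 1 array 3 to 6 did (3 without day 7 replicate 4 or day 3 replicate 3). Aif1, the microglia and macrophage protein Iba1, averaged 10.66 ± 0.08 at day 7 and 10.08 ± 0.15 at day 3. Its rise of 0.57 ± 0.22 (adjusted p = 0.0493) passed in only 1 of 9 such fits. P2ry12 (0.50) and Tmem119 (0.29), which define resident microglia, did not pass, nor did the integrin Itgam (-0.22).

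Complement genes split. Of 16 tested, 5 rose and 3 fell, and 5 and 2 without day 3 replicates 3 and 4. The subunits of C1q, which microglia and macrophages make, rose by 0.82 ± 0.12 for C1qc, 0.72 ± 0.11 for C1qa and 0.50 ± 0.12 for C1qb. C1qa read 13.57, 13.55, 13.49 and 13.51 at day 7 and 12.77, 12.70, 12.80, 13.21 and 12.54 at day 3, with no overlap. C2, which the classical and lectin pathways share, was under background on every day 3 array and at least 1.88-fold higher at day 7. Serping1, which inhibits the C1 proteases, rose by 0.78. The fallers were the receptors C5ar1 and Cd93 and the regulator Cr1l (-0.43).

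Interferon-induced genes were higher at day 7 for 7 of 24 tested, and 0 were lower, with a median of 0.45. Ifit3, an antiviral effector, read 10.03, 9.45, 9.59 and 10.20 at day 7, against 8.01, 7.34, 9.23, 6.99 and 7.72 at day 3. Replicate 3 of day 3 came close to the day 7 arrays and the other 4 lay at least 1.4 below them, and the difference was 1.96 ± 0.40 (adjusted p = 0.00116). Usp18 rose by 1.73 and Ifit1 by 1.90 ± 0.55, and Mx1, with 3 day 3 arrays under background, was at least 1.72-fold higher. The list mean was 7.73, 7.35, 7.57 and 8.08 at day 7 and 7.40, 6.5, 8.23, 6.93 and 6.43 at day 3, so replicate 3 exceeded every day 7 array. The count of risers was 8 without day 3 replicates 3 and 4, 12 without day 3 replicates 1 and 3, 2 without day 7 replicate 4, 3 without day 3 replicate 4, and 4 without day 7 replicate 1, day 3 replicate 2 or day 3 replicate 5. Mx1 and Oasl2 passed in 3 of the 9 fits without 1 array. Irf7 (0.18), Irf1 (-0.21), Stat2 (-0.14) and Oas1a (-0.28) did not pass.

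In antigen presentation 3 chains of class II molecules fell, while H2-DMa, which helps load these molecules with peptide, was at 0.32 and did not pass. Of 18 tested, 6 fell and 0 rose. H2-Eb1, a chain of a class II molecule, read 5.71, 5.17, 5.98 and 5.49 at day 7 and 7.18, 5.96, 7.91, 7.58 and 6.78 at day 3. Only day 3 replicate 2 overlapped the day 7 arrays. It fell by 1.49 ± 0.46 (limma adjusted p = 0.0202), and the class II chains H2-Aa by 1.24 ± 0.45 and H2-Ab1 by 1.17 ± 0.37. Cd74, the invariant chain that guides class II molecules through the cell, fell by 1.48 ± 0.39, and the thiol reductase Ifi30 by 1.12 ± 0.18. The class I genes H2-K1 (0.21), H2-D1 (0.29) and B2m (0.30) did not pass. With day 3 replicates 3 and 4 left out, H2-Eb1, H2-Aa, H2-Ab1 and Cd74 did not pass, at differences of -1.05, -0.95, -0.79 and -1.06 and adjusted p of 0.204, 0.27, 0.228 and 0.116, while 2 members of the list fell and 4 rose. Leaving out replicate 3 or 4 of day 3, or replicate 2 of day 7, left 3 fallers.

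Of 13 tested neutrophil genes, 3 fell and 0 rose, with 1 falling without day 3 replicates 3 and 4, and 6 without day 3 replicate 2 or 5. Lcn2, an iron-binding lipocalin that astrocytes make too, averaged 8.80 ± 0.62 at day 7 and 10.90 ± 0.60 at day 3 and fell by 2.10 ± 0.44. The decoy receptor Il1r2, under background at day 7, was at least 3.09-fold lower. The granule genes of neutrophils did not pass, S100a8 at -0.71, S100a9 at -0.89 and Ngp at -0.85, although the median of the list was -0.97. The list mean lay at 6.04 to 6.94 on the day 7 arrays and on day 3 at 6.61 to 7.93 in 4 arrays and 9.68 in replicate 3. Only 2 of 19 lymphocyte genes on the array were tested, and Ighm, the heavy chain of IgM, rose by 1.05 ± 0.36 (adjusted p = 0.0309), a call that 5 of 9 fits without 1 array lost, as did the fit without replicates 3 and 4.

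**Figure D2:**
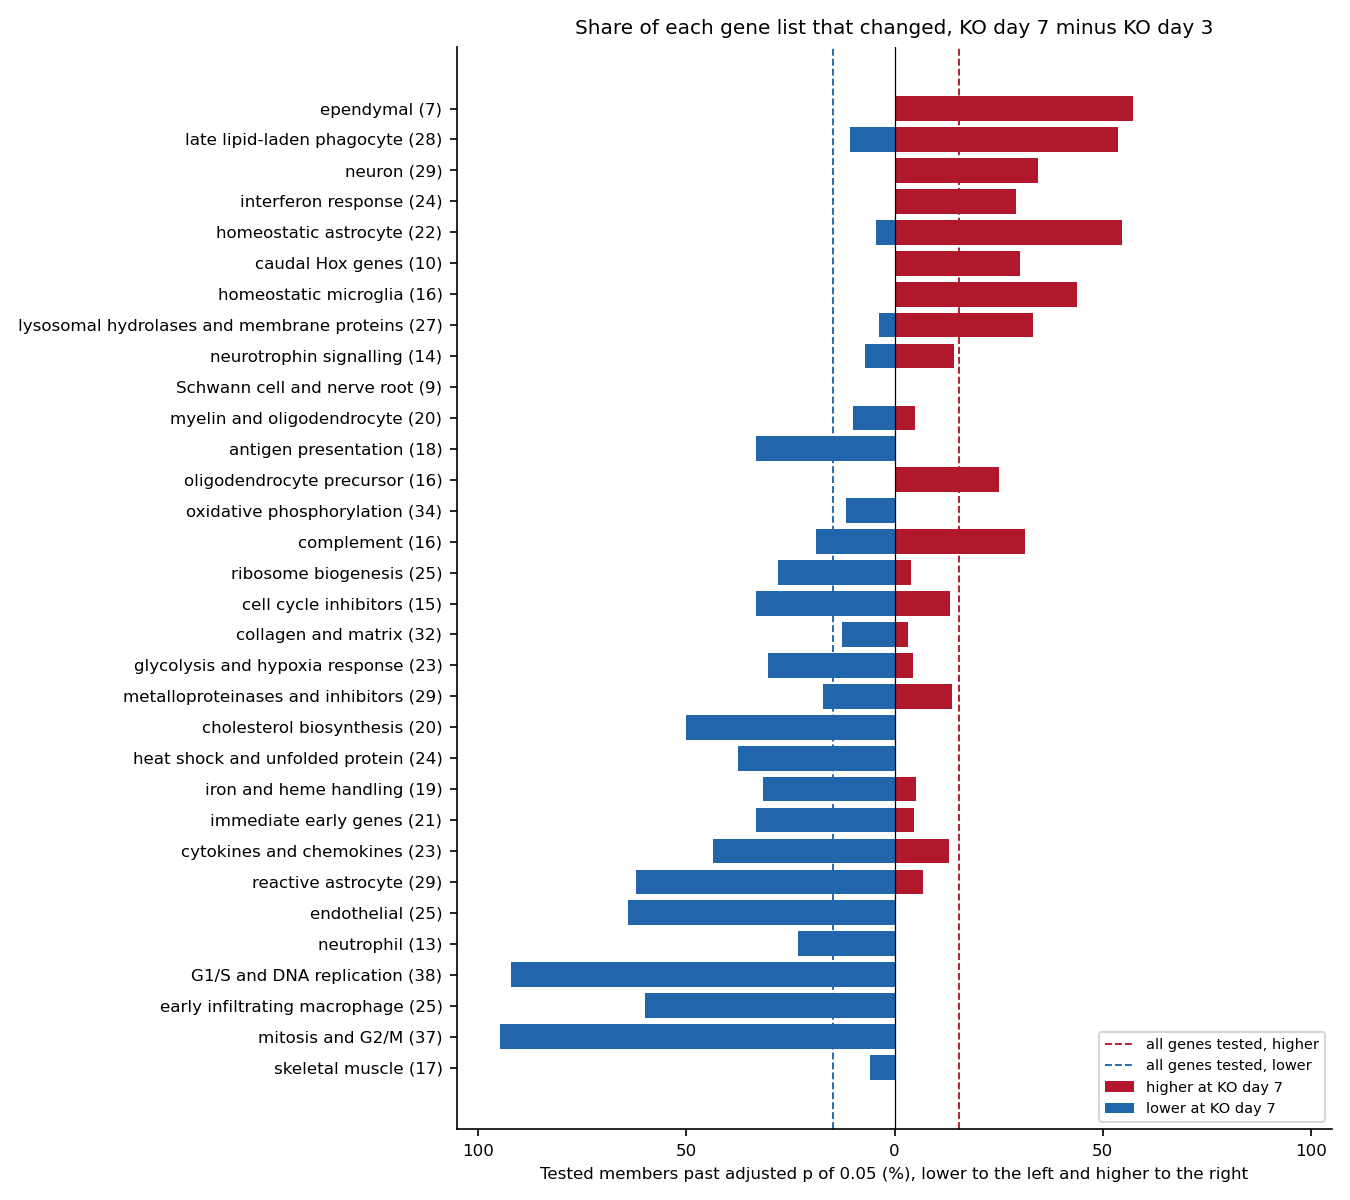
For each gene list with at least 5 tested members (number in brackets), the percentage of tested members that rose (red, right) or fell (blue, left) from KO day 3 to KO day 7, ordered by median log2 difference. Dashed lines mark the same shares over all genes tested, 15.5% higher and 14.7% lower; 35 of 37 mitosis genes fell and 15 of 28 late phagocyte genes rose.

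Astrocyte genes moved in opposing directions by kind. Of 29 tested genes of reactive astrocytes, 18 fell and 2 rose, with a median of -0.65, and of 22 genes of homeostatic astrocytes 12 rose and 1 fell, with a median of 0.45. With day 3 replicates 3 and 4 left out there were 15 fallers and 2 risers, and 8 risers and 1 faller. Timp1, an inhibitor of metalloproteinases induced in reactive astrocytes, read 8.09, 8.09, 8.45 and 7.93 at day 7, against 10.18, 10.19, 10.86, 10.93 and 10.27 at day 3. It fell by 2.35 ± 0.21, 5.10-fold, with no overlap (adjusted p = 6.62e-08). Tm4sf1, a tetraspanin-like membrane protein, fell by 1.75 ± 0.16, the transglutaminase Tgm1 by 2.13 ± 0.26, the matrix protein Tnc by 1.79 ± 0.24 and the protease inhibitor Serpina3n by 0.99 ± 0.14. The intermediate filament genes fell too where they are widely shared, Nes by 1.48 and Vim by 0.56, as did Stat3 (-0.70) and its target Socs3 (-1.78). Gfap, the astrocyte filament, read 13.42, 13.46, 13.34 and 13.39 at day 7 and 13.36, 13.44, 13.17, 13.40 and 13.39 at day 3. These overlapped throughout, and the difference was 0.05 ± 0.14 (adjusted p = 0.795). Other Gfap probe sets were higher at day 7 by 0.41 ± 0.19 and 0.40 ± 0.17. They did not pass either (limma adjusted p = 0.105 and 0.0819). Gfap thus did not fall with the other members, and the list did not move as 1 unit. Several fallers, such as Timp1, Thbs1 and Cd44, are also made by macrophages, endothelial cells or fibroblasts.

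Among homeostatic astrocyte genes, Agt, the angiotensin precursor, read 10.31, 10.56, 10.60 and 10.45 at day 7, against 8.96, 9.42, 8.09, 8.76 and 8.99 at day 3. It rose by 1.64 ± 0.20, 3.11-fold (adjusted p = 2.89e-06), with the lowest day 7 array 0.9 above the highest day 3 array. Ntsr2, a neurotensin receptor, rose by 1.67 ± 0.27, the GABA transporter Slc6a11 by 1.17, Mlc1, a membrane protein of astrocyte endfeet, by 0.84 ± 0.14 and the glutamate transporters Slc1a3 and Slc1a2 by 0.83 and 0.58. The water channel Aqp4 (0.37), the potassium channel Kcnj10 (0.26) and the gap junction genes Gja1 (0.32) and Gjb6 (0.42) did not pass. The one that fell was the folate enzyme Aldh1l1 (-0.44). Day 3 replicate 3 was the lowest array for Agt, Ntsr2 and Mlc1.

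Genes of blood vessels fell. Of 25 tested endothelial genes, 16 fell and 0 rose, 11 by 2-fold or more, with a median of -0.83, and the count was 10 without day 3 replicates 3 and 4. Cldn5, the tight junction claudin of the blood-brain barrier, read 8.60, 7.82, 8.73 and 8.78 at day 7, against 10.42, 10.45, 10.63, 11.28 and 9.34 at day 3. It fell by 1.95 ± 0.31, 3.85-fold (adjusted p = 8.16e-05), and the nearest arrays, both of them the extremes of their groups, were 0.6 apart. The adhesion molecule Pecam1 fell by 2.70, the growth factor receptors Kdr and Tek by 1.80 ± 0.31 and 1.63 ± 0.30, and the sialomucin Emcn by 1.77 ± 0.31. The fenestral protein Plvap fell by 0.74 ± 0.12, and Egfl7, which endothelial cells secrete, by 1.20 ± 0.20. Barrier transporters did not pass, with Mfsd2a at -0.21, Slco1c1 at -0.50 and Abcb1a at -0.37, and Slc2a1, the glucose transporter of the barrier, fell by 0.45 ± 0.12. Day 3 replicate 5 had the lowest signal of its group for Cldn5, Kdr, Emcn and Tek.

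Matrix genes changed little as a list. Of 32 tested, 4 fell and 1 rose, also without day 3 replicates 3 and 4, with a median of -0.25. The fallers were the elastic fibre protein Fbln2 (-2.10 ± 0.48), Tnc, the smooth muscle actin Acta2 (-1.66 ± 0.36) and Thbs2 (-0.74 ± 0.16), whose other probe sets, at 0.00 and 0.21, did not pass. Col1a1, the chain of type I collagen, read 8.86, 8.88, 9.41 and 9.03 at day 7, against 9.74, 7.73, 10.95, 8.68 and 7.28 at day 3. The day 3 arrays spanned the day 7 ones on both sides, and the difference was 0.17 ± 0.65 (adjusted p = 0.866). Of 29 metalloproteinases, related proteases and their inhibitors, 4 rose and 5 fell, and 6 and 2 without day 3 replicates 3 and 4. Next to Mmp12, the plasminogen activators Plau (1.00) and Plat (0.50 ± 0.11) and the inhibitor Timp2 (0.47 ± 0.09) rose. Timp1, Mmp19 (-0.97 ± 0.19), Adamts1 (-1.04 ± 0.28), Adamts9 (-0.98) and Adam8 (-1.0) fell, and the fallers numbered 9 without day 3 replicate 2 and 10 without replicate 5.

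Few myelin genes passed. Of 20 tested, 1 rose and 2 fell, with a median of 0.05, and 1 and 0 without day 3 replicates 3 and 4. The risers numbered 3 without day 3 replicate 5. Mbp, the basic protein of myelin, read 15.61, 15.60, 15.64 and 15.64 at day 7 and 15.61, 15.61, 15.50, 15.59 and 15.53 at day 3, near the top of the scale. Its difference of 0.06 ± 0.04 did not pass (limma adjusted p = 0.304), although the mean of its probe sets did. Another Mbp probe set rose by 0.44 ± 0.10 and passed (limma adjusted p = 0.00437). The remaining ones, at 0.04 to 0.23, did not pass. Cnp, a phosphodiesterase of oligodendrocytes, rose by 0.46 ± 0.07, and the stress protein Cryab and the actin-severing Gsn fell by 0.53 ± 0.16 and 0.35 ± 0.10. Of 16 tested genes of oligodendrocyte precursors, 4 rose and 0 fell, with or without day 3 replicates 3 and 4, led by the proteoglycan Bcan (1.06 ± 0.14) and the tenascin Tnr (0.90 ± 0.13), which read 10.27, 10.26, 10.24 and 10.36 at day 7 and 9.30, 9.75, 9.02, 9.32 and 9.53 at day 3. Pdgfra (-0.28) and Cspg4 (-0.37), which define these precursors, did not pass. Cholesterol synthesis, on which myelin and membrane growth draw, fell mildly. Of 20 tested enzymes and regulators, 10 fell and 0 rose, with a median of -0.30 and none by 2-fold, and 8 fell without day 3 replicates 3 and 4. Ebp, a sterol isomerase, averaged 8.65 ± 0.07 at day 7 and 9.33 ± 0.12 at day 3, a fall of 0.69 ± 0.08 (limma adjusted p = 2.22e-06). Sc5d, Fdps and Fdft1 fell by 0.46 ± 0.09, 0.55 ± 0.13 and 0.32 ± 0.09. Another Sc5d probe set, at -0.07 ± 0.21, did not pass (limma adjusted p = 0.846). In fits without day 7 replicate 1, 2 or 3 the fallers numbered 6.

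The largest rise of all genes tested was that of 9630013A20Rik, a transcript given here under its RIKEN clone symbol. It read 9.74, 9.77, 9.71 and 9.70 at day 7, against 4.73, 5.85, 4.26, 4.97 and 5.82 at day 3. The day 7 arrays lay within 0.1 of each other and the rise was 4.60 ± 0.29, 24.3-fold (adjusted p = 3.3e-10). Rassf10, of the Ras association domain family, was under background on every day 3 array and at 6.01 to 6.60 on the day 7 arrays, at least 4.57-fold higher. Kcne1l, a potassium channel accessory subunit, rose by 2.93 ± 0.29, Mia, a secreted protein of cartilage and glia, by 2.53 ± 0.50, and Igsf1, an immunoglobulin superfamily membrane protein, by 2.52 ± 0.23. Another Igsf1 probe set rose by less, 0.70 ± 0.20 (limma adjusted p = 0.0152). Igf2, the growth factor that meninges and choroid plexus secrete, rose by 2.24 ± 0.50. Rbp4, the retinol carrier of plasma, rose by 2.23 ± 0.71, and Slc26a7, an anion exchanger with 3 day 3 arrays under background, was at least 3.68-fold higher. In the fit leaving out day 3 replicates 3 and 4 their adjusted p were 0.11 and 0.0637. Among the largest falls, Ptges3l, a co-chaperone-like gene under background at day 7, was at least 4.52-fold lower.

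Neuronal genes and the Hox genes of the caudal cord check the tissue and show the uneven day 3 arrays. Of 29 tested neuronal genes, 10 rose and 0 fell, with a median of 0.45. Without day 3 replicates 3 and 4 the count was 0, as it was without replicates 1 and 3, with only the 9 KO arrays in the fit, with array weights, and without day 7 replicate 2, day 3 replicate 3 or day 3 replicate 4 alone. It was 1 or 2 without another day 7 array, and 13, 18 and 19 without day 3 replicate 1, 2 or 5. Snap25, a synaptic fusion protein, read 14.75, 14.69, 14.70 and 14.81 at day 7, against 14.54, 14.71, 13.83, 13.82 and 14.70 at day 3. Replicates 3 and 4 stood about 0.7 below the others, which overlapped the day 7 arrays. The rise of 0.42 ± 0.16 passed in 3 of 9 fits without 1 array (adjusted p up to 0.157), and without replicates 3 and 4 it was 0.09 (adjusted p = 0.666). Calb1, a calcium buffer of dorsal horn neurons, read 9.45, 9.72, 9.75 and 9.71 at day 7 and 9.23, 9.13, 6.68, 7.46 and 9.07 at day 3, the same 2 arrays being low. The synaptic vesicle gene Syt1 rose by 1.07 ± 0.33, the potassium-chloride transporter Slc12a5 by 0.69 ± 0.24, the GABA synthase Gad1 by 0.72 ± 0.26, the vesicular transporter Slc32a1 by 0.67 ± 0.23 and the channel Kcnc1 by 0.72 ± 0.25, and none of these passed without the 2 arrays.

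The mean of the neuron list was 10.94, 10.96, 10.94 and 10.98 at day 7 and 10.76, 10.99, 9.85, 9.98 and 10.93 at day 3. That of the caudal Hox genes, which mark position along the cord, was 8.39, 8.55, 8.59 and 8.42 at day 7 and 8.29, 8.34, 7.00, 7.39 and 8.32 at day 3. Replicates 3 and 4 were low in both. Of 10 tested Hox genes 3 rose and 0 fell, Hoxa7 (0.66 ± 0.20), Hoxa9 (0.36 ± 0.12) and Hoxd8 (0.35 ± 0.12), and 0 did without those arrays. Skeletal muscle genes, foreign to the cord, had means of 4.15 to 5.13 on the day 7 arrays and of 10.40, 4.98, 12.90, 4.56 and 4.43 at day 3. Myh4, a fast myosin, read 2.64, 2.64, 3.86 and 4.07 at day 7 and 12.23, 5.79, 14.42, 4.42 and 4.36 at day 3. Its call (at least 18.7-fold lower at day 7, adjusted p = 0.0448) thus rests on replicates 1 and 3, and without them it did not pass (adjusted p = 0.483). Of 17 tested muscle genes Myh4 alone passed, and 0 to 9 passed in fits without 1 array, most without day 3 replicate 2 (8) or 5 (9), and 0 without replicates 3 and 4. What part the makeup of these pieces of tissue has in other results was not tested. The Schwann cell and nerve root list had 9 tested genes, of which 0 passed, with Pmp2 at 1.17 ± 0.83 and Ngfr at 0.07 ± 0.44. Of 7 tested ependymal genes 4 rose, among them the ciliary genes Ccdc153 (at least 1.71-fold) and Cfap126 (0.74 ± 0.14), and 2 did without replicates 3 and 4.

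**Figure D3:**
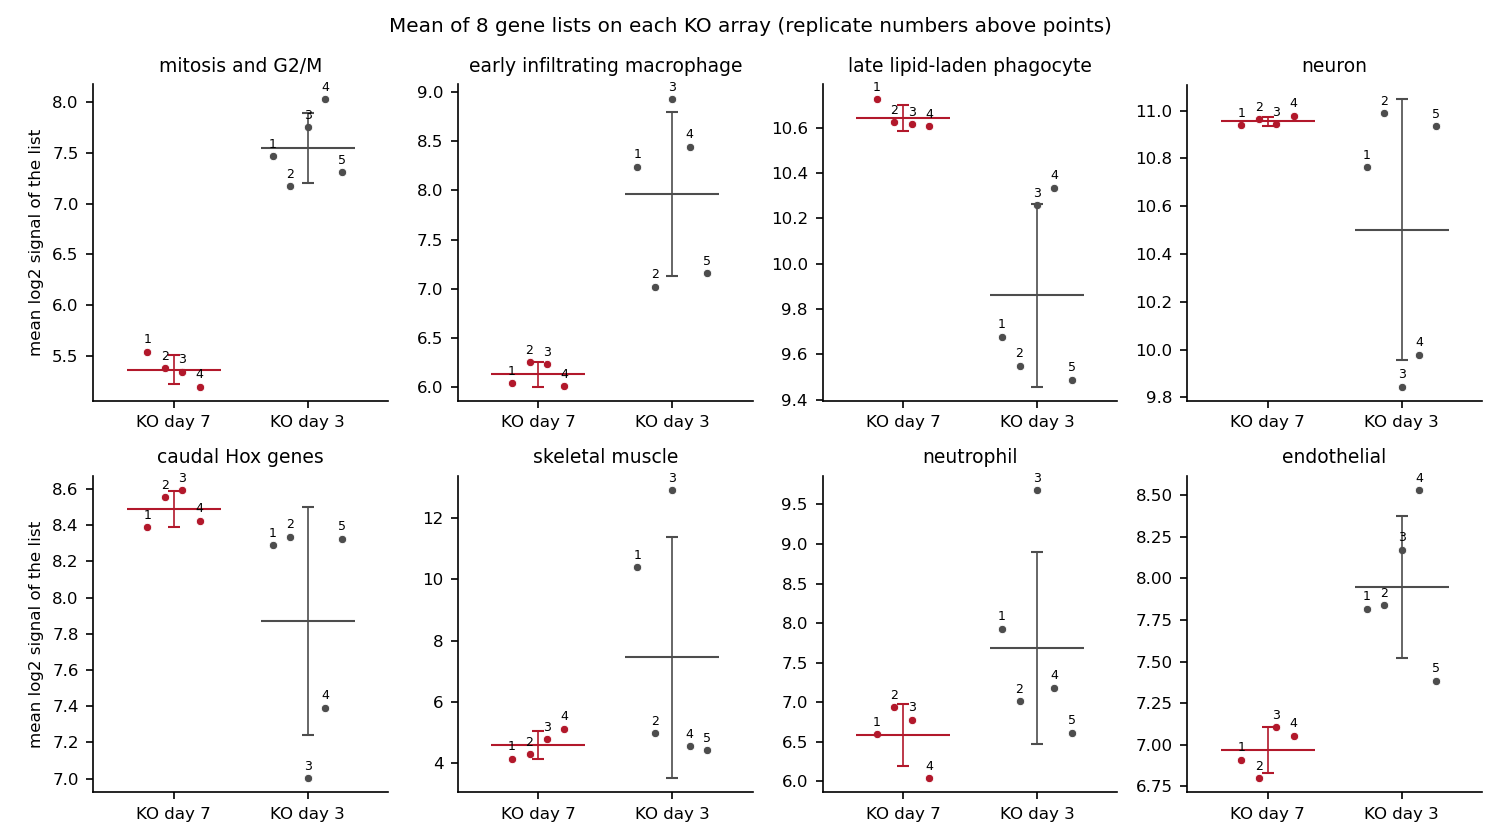
Mean log2 signal of the tested members of 8 gene lists on each KO array, with day 7 (red) left of day 3 (grey); numbers are replicates, lines are means, bars are SD, and each panel has its own axis. Day 3 replicates 3 and 4 are low in the neuron and caudal Hox lists (9.85 and 9.98, and 7.00 and 7.39), replicates 1 and 3 are high in skeletal muscle (10.40 and 12.90), and mitosis genes separate the groups on every array.

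Of 14 tested genes of neurotrophin signalling, 2 rose and 1 fell. The risers numbered 0 without day 3 replicates 3 and 4, without either of them alone or without any 1 day 7 array, and 4, 5 and 4 without day 3 replicate 1, 2 or 5. Bdnf, the ligand of trkB, read 6.61, 6.62, 6.63 and 6.77 at day 7 and 6.39, 7.10, 5.21, 5.52 and 6.77 at day 3. Replicates 3 and 4 were again low, and the difference of 0.46 ± 0.30 did not pass (adjusted p = 0.245). Ntrk3, the receptor of neurotrophin 3, rose by 0.47 ± 0.16. That rise passed in 3 of 9 fits without 1 array and not without replicates 3 and 4 (0.16, limma adjusted p = 0.483). Other Ntrk3 probe sets, at 0.12 ± 0.15, 0.38 ± 0.20 and 0.35 ± 0.18, did not pass. Gfra1, a co-receptor for glial cell line-derived neurotrophic factor, fell by 0.37 ± 0.09 (adjusted p = 0.00497). Its other probe sets, at -0.03 ± 0.19 and -0.32 ± 0.22, did not pass (limma adjusted p = 0.931 and 0.29). The p75 receptor Ngfr, whose arrays ranged from 5.21 to 6.68 at day 7 and from 4.65 to 7.50 at day 3, did not pass.

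**Figure D4:**
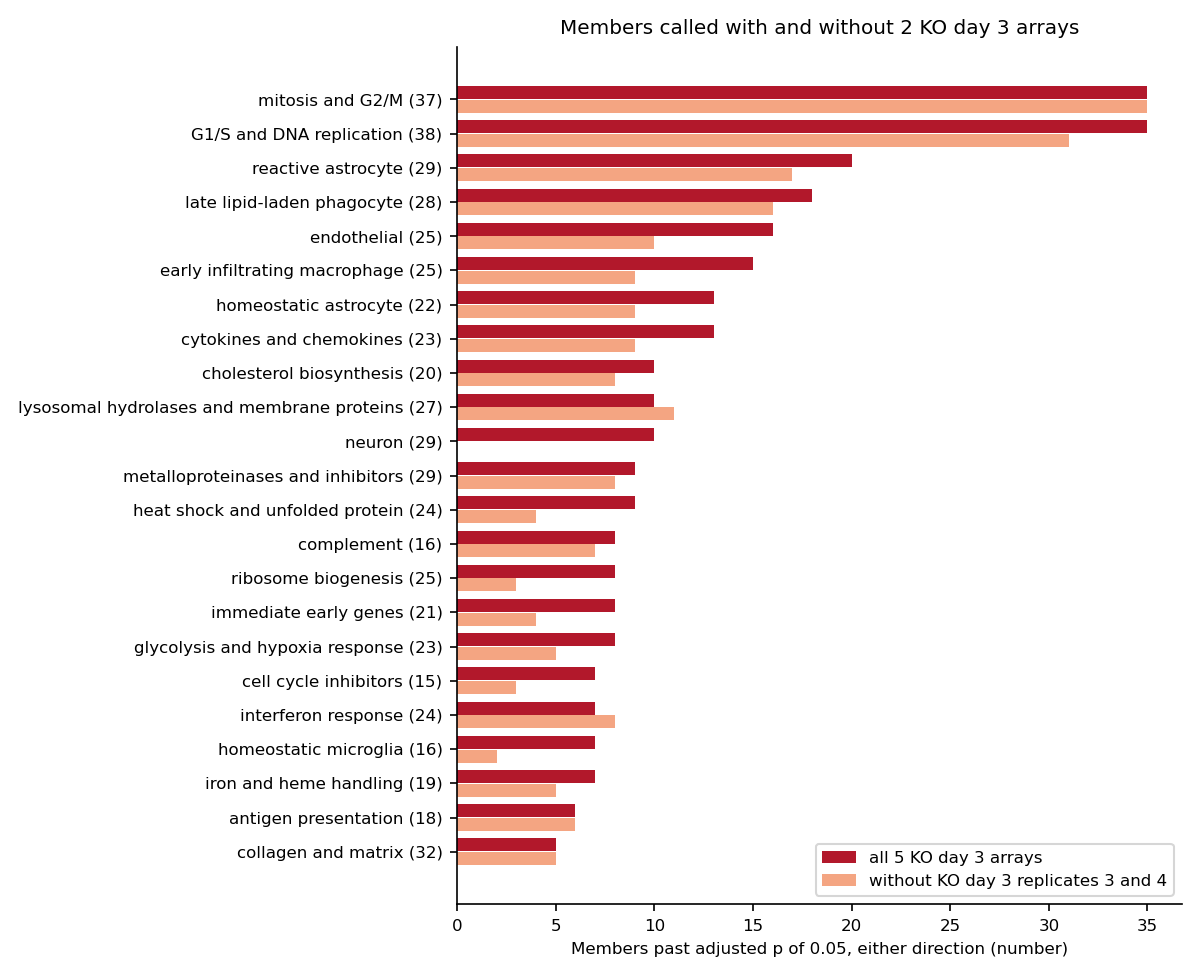
Number of tested members (total in brackets) that passed in either direction with all 5 KO day 3 arrays (red) and without KO day 3 replicates 3 and 4 (orange), for lists with at least 5 calls. The mitosis list keeps 35 calls, the early infiltrating macrophage list has 15 against 9, and the neuron list 10 against 0. Over all genes tested, 3625 passed with all arrays and 1383 without replicates 3 and 4.

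Most tested genes of the stress, growth and energy lists did not pass. Of 24 tested heat shock and unfolded protein genes, 9 fell and 0 rose, and 4 fell without day 3 replicates 3 and 4. Hspb1, the small heat shock protein, averaged 11.35 ± 0.11 at day 7 and 12.67 ± 0.52 at day 3 and fell by 1.32 ± 0.23, and the endoplasmic reticulum genes Pdia6 and Xbp1 fell by 0.72 ± 0.16 and 0.43 ± 0.09. Of 21 immediate early genes, 7 fell and 1 rose, and 4 fell without those arrays. Fos read 10.08, 10.10, 9.91 and 9.89 at day 7, against 10.74, 10.64, 10.89, 11.25 and 10.70 at day 3, a fall of 0.85 ± 0.14 (adjusted p = 0.000202) with no overlap. Ier3 and Fosl2 fell by 1.21 ± 0.23 and 0.99 ± 0.19, and Jund rose by 0.37 ± 0.09. Of 25 genes of ribosome biogenesis, 7 fell and 1 rose, and 3 fell without those arrays, led by the nucleolar proteins Nop58 (-0.56 ± 0.10) and Fbl (-0.50 ± 0.10).

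Of 23 genes of glycolysis and the hypoxia response, 7 fell and 1 rose, and 5 fell without day 3 replicates 3 and 4. Ldha, lactate dehydrogenase, averaged 10.70 ± 0.07 at day 7 and 11.64 ± 0.46 at day 3, a fall of 0.94 ± 0.16. The transcription factor Hif1a fell by 0.34 ± 0.07. Another Hif1a probe set fell by 0.43 ± 0.12, and a further one, at -0.12 ± 0.12, did not pass. Ndrg1 rose by 0.50. Aldoa, at -0.37 ± 0.12, is also a muscle enzyme, and its day 3 replicate 3 stood at 13.73 against 12.74 to 12.99 in the other 4. Oxidative phosphorylation was the flattest list, with 34 tested, 4 lower and 0 higher, a share of fallers below that of all genes, and a median of -0.01, and the lowest member was Ndufa8 at -0.27 ± 0.09. Without replicates 3 and 4, 0 of them passed.

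In WT cord 1070 genes rose between day 3 and day 7, 8.92% of those tested, and 1232 fell, 10.3%. Of the 3625 KO calls, 1577 were called the same way in WT, which is 43.5% of the KO calls and 68.5% of the 2302 WT calls, and 0 were called the opposite way. Of the KO calls, 3482 (96.1%) had the same sign in WT. KO day 3 had 5 arrays and WT day 3 had 4, and WT day 3 replicate 2 also stood apart, with the lowest array weight of these groups, 0.0937. A direct test of the difference between the KO and the WT change gave 0 calls (0% of 11993), with 767 genes at an unadjusted p under 0.05 and a smallest adjusted p of 0.469. So no gene is shown here to change differently between the genotypes, and a gene called in KO alone is not shown to be particular to KO.

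Some list counts in WT were close to those in KO and others were not. In the mitosis list 35 of 37 fell in KO and 36 in WT, in the reactive astrocyte list 18 in KO and 17 in WT, and in the endothelial list 16 in KO and 18 in WT. In the homeostatic astrocyte list 12 rose in KO and 11 in WT. Of 27 lysosomal genes 9 rose in KO and 19 in WT, and of 16 homeostatic microglia genes 7 rose in KO and 9 in WT. In the early infiltrating macrophage list 15 fell in KO and 9 in WT, in the interferon list 7 rose in KO and 2 in WT, and in the neuron list 10 rose in KO and 0 in WT. In antigen presentation 0 rose and 6 fell in KO, against 7 and 1 in WT. The differences between these counts were not tested. The largest gap in medians was in the skeletal muscle list, at -2.88 in KO and -1.04 in WT, where KO day 3 replicates 1 and 3 hold the muscle signal. The class II chains H2-Aa, H2-Ab1 and H2-Eb1 and the invariant chain Cd74 fell in KO and did not pass in WT, where H2-Aa changed by 0.30 ± 0.48 and Cd74 by 0.22 ± 0.41. For Cd74 the KO change minus the WT change was -1.70 ± 0.57 (limma adjusted p = 0.766).

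The 5 genes with the smallest p in that test were Mcoln3, Itga4, Slc25a45, Sin3a and Cdk2, and none passed. Mcoln3, a cation channel of lysosomes and endosomes, read 6.36, 5.56, 5.33 and 6.12 on the KO day 7 arrays, against 2.64, 2.89, 3.33, 3.12 and 2.37 on the KO day 3 arrays. It was under background on every KO day 3 array and above it on every KO day 7 array, at least 3.59-fold higher. In WT it averaged 6.75 ± 0.21 at day 7 and 2.43 ± 0.25 at day 3, and the KO change was smaller by 1.36 ± 0.27 (limma adjusted p = 0.469), a size that includes day 3 values under background in both genotypes. Cdk2, a kinase of S phase, fell by 1.10 ± 0.15 in KO and changed by -0.25 ± 0.15 in WT, a difference of -0.85 ± 0.21 (adjusted p = 0.766). Itga4, an integrin by which leukocytes enter tissue, changed by -0.31 ± 0.22 in KO and rose by 1.04 ± 0.23 in WT (adjusted p of the difference 0.766).

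**Figure D5:**
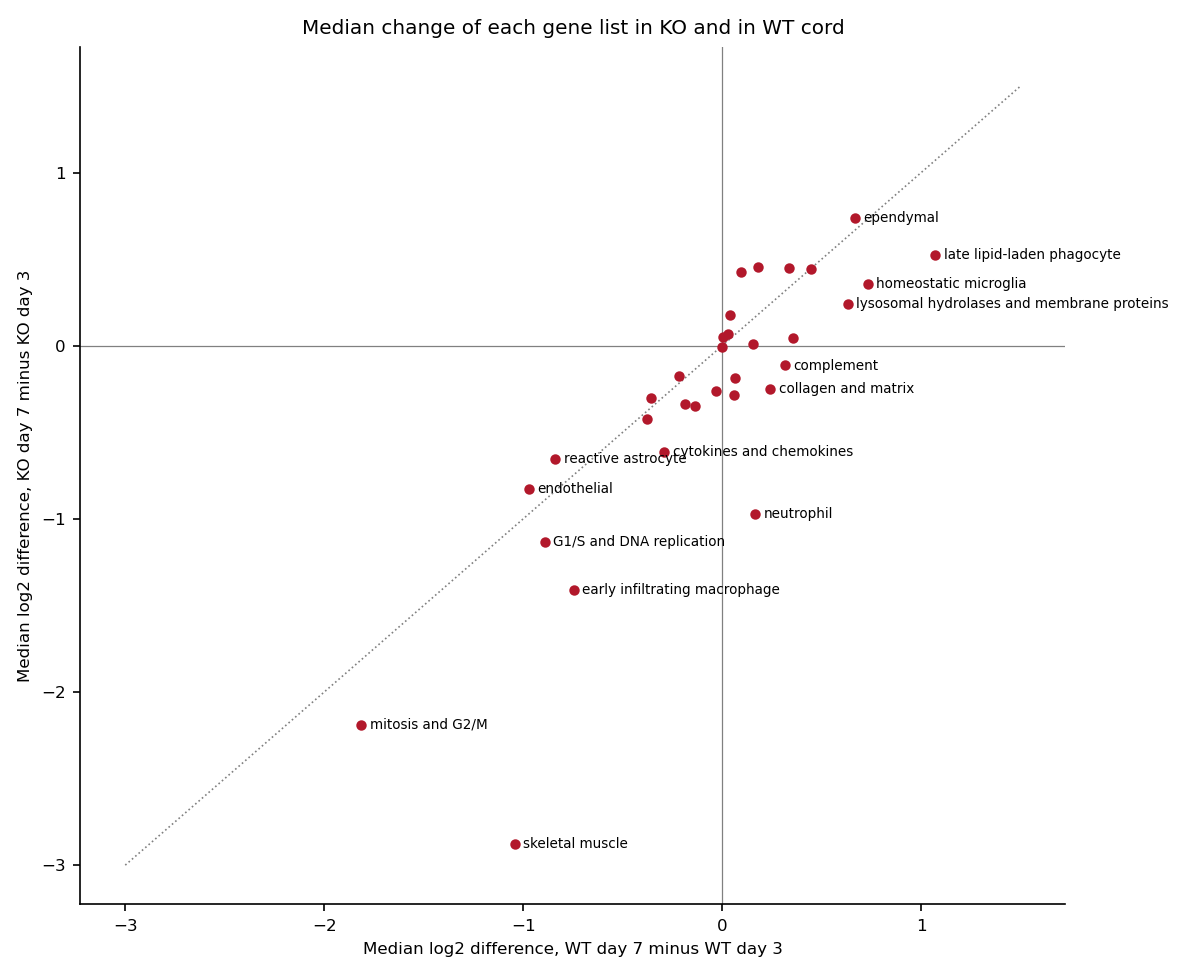
Median log2 difference between day 7 and day 3 for each gene list with at least 5 tested members, in KO cord (vertical axis) and in WT cord (horizontal axis); each point is a list, and the dotted line marks equal change. Mitosis genes lie at -2.19 in KO and -1.81 in WT, and late phagocyte genes at 0.52 and 1.07; the test of the genotype difference passed for no gene.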

How the data were processed

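The authors deposited 1 log2 signal per probe set and Affymetrix array, with GCRMA named in the submitters' processing notes. No version or genome build is given in the sources used here. They ran from 2.17 to 15.9, with array medians from 4.138 to 4.391, and were used as deposited. No 2 arrays were identical. Of 45101 probe sets, 34945 had 1 gene symbol. For each of 18193 genes the probe set of highest mean across the series' 34 arrays was kept. A gene had to exceed log2 4 on 4 or more arrays, which 11993 did and 6200 did not.

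The fit used the 26 arrays of the 6 injured groups, 1 mean per group, with lmFit and eBayes in limma 3.58.1 and R 4.3.3. These groups were KO and WT cord at days 1, 3 and 7. P-values were adjusted by Benjamini-Hochberg over all genes tested, with a threshold of 0.05. The contrasts were KO day 7 minus KO day 3, the same in WT, and the difference of the 2. The fit was tested on simulated data, in which 46 of 50 genes changed by 1 on the log2 scale and 31 of 50 changed by 0.5 were recovered, with 13 of 11793 unchanged genes called. The simulated noise was independent, with the same SD in every group. In the real arrays the median SD was 0.0839 at KO day 7 and 0.21 at KO day 3. The simulation thus does not give the error under such unequal spread or shared shifts in tissue makeup.

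The 34 lists held 860 entries, of which 788 were on the array. Members and lists were chosen with earlier results of these data known. The rule for named genes takes the 12 largest rises and falls that passed, did not overlap and reached a mean of log2 6 in the brighter group. It also takes up to 6 passing members of each list by p, the 5 smallest p of the genotype difference, the member of smallest p where none passed, and 14 genes of standing interest (Col1a1, Gpnmb, Arg1, Snap25, Mbp, Aif1, Gfap, Ccna2, Cdk1, Pcna, Ccnd1, Ngfr, Bdnf and Ntrk2), 188 genes in all. A further gene of that rule is not reported here. Others, given as values of list members, were chosen after their values were seen. Promoter sequences are from RefSeq on GRCm38.p6. Alternatives left out arrays, and changed the arrays fitted, weights, filter, probe set, scaling, floor and replicate block.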

Additional observations from a re-analysis of the deposited data

Results flagged for a closer look

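In 3 of 68 list means and 20 of 376 gene groups of KO day 7 or day 3, 1 array lay far from the others by Dixon's criterion, where chance gives about 1 in 20. Among list means, KO day 7 replicate 1 stood at 10.73 for the late lipid-laden phagocyte genes, against 10.61 to 10.62 in the other 3 arrays, and at 6.46 for cytokines and chemokines, against 6.60 in each of the others. KO day 3 replicate 4 stood at 8.82 for the Schwann cell and nerve root list, against 7.98 to 8.20.

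On day 7, replicate 1 was far from its group for Gmnn (8.21), Tgfbr1 (11.41), Gpr34 (9.68), Calb1 (9.45), Slc32a1 (9.67) and Calr (12.61). Replicate 3 was far for Hmox1, at 8.62 against 7.73 to 7.88, and replicate 4 for Nek2 (2.83), Ifit2 (10.23) and Bdnf (6.77).

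On day 3, replicate 3 was far for Cx3cr1 (9.75), P2ry13 (6.31), Cryab (14.91), Aldoa (13.73) and Alas2 (5.93). Replicate 4 was far for C1qc (11.46) and Blvra (9.97), replicate 1 for Fdps (8.56) and Cfap126 (5.76), and replicate 2 for Scarb2 (12.35). Of the genes named, 0 had KO arrays that did not overlap in one direction and WT arrays that did not overlap in the other.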

How the results depend on the processing

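The number of KO calls, 3625 as reported, was 2126 with only the 9 KO arrays in the fit, 1383 without day 3 replicates 3 and 4, and 2025 without replicates 1 and 3, and ran from 2331 to 4456 without 1 array (lowest without day 3 replicate 3, then 2357 without replicate 4). With at least 2-fold, 555 became 339 without replicates 3 and 4. The genotype difference gave 1 call in place of 0 with all 8 groups in the fit. WT calls numbered 3517 in place of 2302 with array weights. The median of the cell cycle inhibitors, -0.19 as reported, was 0.026 without replicates 3 and 4 and 0.025 without replicates 1 and 3. Of 178 named genes that passed, 110 passed under every alternative that gave them a value, and over 3932 pairs of gene and setting, 352 lost and 1 gained a call and 0 reversed. Of 118 other probe sets of 72 called genes, 81 passed the same way, 0 the opposite way and 37 did not pass. Replicate numbers are shared between days, and the deviations of same-numbered arrays had correlations of -0.13, 0.10, 0.04 and -0.07. Those of unlike-numbered arrays ran from -0.12 to 0.22. So few arrays cannot show whether the numbers pair the samples, and the reported fit did not pair them. With the number as a replicate block 4105 genes passed, 657 of them by 2-fold. Signal near background limits what can be said of dim genes.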

Other observations

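Genes of newly formed oligodendrocytes, a list written after the values were seen and so given only as a description, rose together. Of 9 tested, 7 rose and 0 fell in KO cord, with a median of 0.99, and 7 rose in WT cord, with a median of 1.06. Enpp6, a choline phosphodiesterase that marks this stage, read 9.56, 9.63, 9.57 and 9.55 at KO day 7, against 8.06, 8.25, 8.32, 8.37 and 8.43 at KO day 3. The day 7 arrays stood more than 1 log2 unit above the day 3 arrays, which replicates 3 and 4 did not set apart, and the rise was 1.29 ± 0.16 (limma adjusted p = 5.15e-06). Bmp4 rose by 2.05 ± 0.28, the transmembrane protein Tmem163 by 1.38 ± 0.17, the transcription factor Tcf7l2 by 1.21 ± 0.12 and the kinase Fyn by 0.99 ± 0.08. Bcas1, at -0.10 ± 0.08, and Gpr17, at 0.51 ± 0.84, did not pass.

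A list of leptomeningeal genes, likewise written after the values were seen, had 9 tested members, of which 5 rose and 1 fell in KO cord and 1 rose and 1 fell in WT cord. Fmod, a small matrix proteoglycan, read 12.08, 12.30, 12.09 and 12.24 at KO day 7, against 10.05, 10.11, 10.57 and 10.37 in KO day 3 replicates 1, 2, 3 and 5 and slightly less in replicate 4, a rise of 1.96 ± 0.45 (adjusted p = 0.00295). Slc6a13, a GABA and taurine transporter, rose by 1.67 ± 0.37, and Ptgds, the prostaglandin D synthase, by 0.93 ± 0.21. Igfbp2 fell by 1.06 ± 0.15. For Slc6a13 the KO change exceeded the WT change by 1.36 ± 0.54, which did not pass (adjusted p = 0.766).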
